A study of Mus musculus with 8 samples.

Results

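The genes described here are 10 genes of the NRF2 response, of glutathione synthesis and reduction, and of heme and iron handling: *Nqo1*, *Hmox1*, *Gclm*, *Gclc*, *Txnrd1*, *Srxn1*, *Osgin1*, *Gsr*, *Ftl1* and *Fth1*. They were chosen by gene name, with earlier results of these data known, and are 10 of the 17167 genes listed in the count table. All 10 passed the filter on low counts. RNA-seq was performed on cultured undifferentiated spermatogonia (A_undiff, the germ cell population that includes the stem cells of the testis) given vehicle (DMSO) or AGX51, an inhibitor of all ID proteins, for 20 h. The ID proteins hold E-protein transcription factors away from DNA, and the comparison asks which transcripts differ once they are inhibited. The 4 vehicle and 4 AGX51 libraries came from 4 cultures, each from a separate wild-type mouse and split between the treatments, and replicates of the same number share a culture. AGX51 was used at 80 µM in the series' design text, while the sample labels write 80 mM.

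Both groups share every other step. The cells were enriched from adult testis through CD9, grown on mitotically inactivated mouse embryonic fibroblast feeders, separated from feeders by 1 to 2 h of attachment to plastic, and grown on Geltrex for 4 days before treatment. The sample labels give the strain as CBA/J and the study's procedures give wild-type mice as C57BL/6J. Each value is from a whole culture, so fewer cells of a type and less RNA per cell cannot be told apart.

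NRF2, encoded by *Nfe2l2*, is a transcription factor that KEAP1 marks for degradation. When electrophiles or oxidants modify KEAP1, or when p62 (*Sqstm1*) binds it, NRF2 accumulates, pairs with a small MAF protein and binds antioxidant response elements, while BACH1 occupies many of the same elements until heme releases it. Its targets make glutathione, recycle oxidized thiols, reduce quinones, break down heme and store the iron that heme releases. Ferritin is also controlled at translation by the iron regulatory proteins, a step that RNA-seq does not measure.

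The letters that NRF2 is known to bind were looked for near the starts of these genes, since the pathway acts on its targets through such letters. Elements further from a start were not looked for. RefSeq promoter windows of GRCm38.p6, from 250 bases before to 50 bases after a transcription start, matched 7 of the 10 genes and hold 10 promoters. *Gclc*, *Gsr* and *Hmox1* did not match. The core of the antioxidant response element, TGACNNNGC on either strand, was found in 3 of the 10 promoters and in 12.4% of all 32851 promoters. The AP-1 motif TGANTCA, which reads the same on both strands, was found in 2 of the 10 and in 7.81% of all promoters. No copy of one motif, so defined, overlapped a copy of the other. Letters with TGAG in place of TGAC were not counted as an antioxidant core. Such letters, TGAGTCAGC, lie at the AP-1 motif nearer the start of *Srxn1* and, on the reverse strand, at that of *Osgin1*. *Gclm* and 1 of the 3 *Txnrd1* promoters each hold an antioxidant core upstream of the start. *Srxn1* holds 2 AP-1 motifs upstream and an antioxidant core 29 bases after the start, and *Osgin1* holds 1 AP-1 motif. No match to either motif was found in the windows of *Nqo1*, *Ftl1* or *Fth1*. The stretches around the upstream matches are shown on the + strand, 5′ to 3′, with the match in capitals. The antioxidant cores of *Gclm* and *Txnrd1* read on the reverse strand, so that their capitals begin with GC. They lie 134 to 126 and 92 to 84 bases before the start. The AP-1 motifs lie 102 to 96 and 45 to 39 bases before the start of *Srxn1*, and 97 to 91 bases before that of *Osgin1*.
Gclm, antioxidant core, chr3:122245408-122245446: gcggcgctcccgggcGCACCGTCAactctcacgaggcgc
Txnrd1, antioxidant core, chr10:82859099-82859137: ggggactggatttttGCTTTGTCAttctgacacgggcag
Srxn1, AP-1, chr2:152105407-152105500: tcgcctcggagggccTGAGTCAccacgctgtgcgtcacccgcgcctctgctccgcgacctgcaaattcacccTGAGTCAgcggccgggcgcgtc
Osgin1, AP-1, chr8:119437035-119437071: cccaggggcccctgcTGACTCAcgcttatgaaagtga
These are matches of letters only, and a window without a match lacks only these letters.

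The libraries held 8330176 to 9586105 counts with vehicle and 4303318 to 8441399 with AGX51, and the AGX51 library was the smaller in each of the 4 cultures (p = 0.0571 by a two-sided exact permutation test, whose lowest possible p with 4 against 4 is 0.0286). Levels are given as CPM, counts scaled to an equal library total. Fold changes are from edgeR's quasi-likelihood test with Benjamini-Hochberg adjustment over 14428 tested genes, and a gene was called where the adjusted p was under 0.05 and the fold above 1.5. At this rule 18.5% of tested genes were called, 8.57% higher with AGX51 and 9.93% lower. Of the calls 46.3% were higher, or 35.2% when library totals alone set the scale. All 17 markers of undifferentiated spermatogonia that were looked for were tested, with summed levels of 2190 to 2680 CPM in vehicle and 1420 to 1870 in AGX51 libraries. Of these, 5 fell (*Dazl*, *Gfra1*, *Etv5*, *Cdh1* and *Nanos3*) and none was called higher with edgeR, limma-voom or DESeq2. The 1 marker higher at an unadjusted p under 0.05 was *Uchl1*. It also passed the adjusted p threshold (adjusted p = 0.00131 from edgeR) but not the fold threshold, with a log2 fold change of 0.47. Averaged over these markers, log2 CPM was 5.71 ± 0.11 with vehicle and 5.21 ± 0.08 with AGX51 (SD, n = 4, p = 0.0286 by a two-sided exact permutation test). *Dazl* averaged 833 and 339 CPM, *Tex101* 366 and 356, and *Ddx4* 273 and 229. The study names the product of *Ddx4*, VASA, as a germ cell marker, so the list is not limited to genes of undifferentiated spermatogonia.

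Fibroblast markers were also measured, and 21 of 24 had a positive log2 fold change. By the same rule 10 rose and 1, *S100a4*, fell. Averaged over the list, log2 CPM was 6.03, 6.29, 6.27 and 6.74 in vehicle replicates 1 to 4 and 6.39, 6.61, 6.73 and 7.40 in AGX51 replicates 1 to 4, with AGX51 the higher in each of the 4 cultures (p = 0.171 by a two-sided exact permutation test). That test ignores the pairing by culture. Paired by culture, an exact sign-flip test gave p = 0.125, the lowest it can give with 4 pairs. Culture 4 was the highest in both groups. Summed levels ran from 4880 to 7920 CPM in vehicle and from 6420 to 11300 in AGX51 libraries, and *Acta2*, *Sparc* and *Vim*, the most abundant markers, averaged 1574, 949 and 804 CPM in vehicle and 1674, 1599 and 1112 in AGX51. How much of each result is fibroblast RNA was not tested, and each called gene of the 10 is also given from a fit that held the fibroblast marker mean as a covariate. Other cell types gave low levels. Of 8 tested macrophage markers *Cd68* rose and *Mrc1* fell, with summed levels of 57.0 to 127 CPM in vehicle and 49.0 to 119 in AGX51. The most abundant were *Lyz2*, at 56.9 and 42.4 CPM, *Cd68*, at 14.8 and 24.99, and *Fcgr3*, at 5.10 and 4.26. *Adgre1*, *Csf1r* and *Ptprc* had no row in the table. The 3 tested Sertoli cell markers, *Sox9*, *Wt1* and *Rhox5*, summed to 31.5 to 43.7 CPM in vehicle and 25.9 to 43.1 in AGX51, with 0 called by edgeR, limma-voom or DESeq2 and 0 at an unadjusted p under 0.05. *Star*, the 1 Leydig cell marker with a row, averaged 3.01 and 4.70 CPM and was called higher.

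Of the 10 genes, 4 rose with AGX51 (*Hmox1*, *Srxn1*, *Ftl1* and *Gclm*), against 8.57% of all tested genes. None was called lower by edgeR, limma-voom or DESeq2, and 2 (*Gsr* and *Gclc*) had lower levels at an unadjusted p under 0.05. Of these, *Gsr* also passed the adjusted p threshold. The remaining 6 were not called. The median log2 fold change of the 10 was 0.37, in a range of -0.36 to 1.96, and that of all tested genes was 0.001. In 4 genes the AGX51 libraries were all above the vehicle libraries in CPM, against 10.6% of tested genes, and in 2 (*Gclc* and *Gsr*) they were all below, against 17.9%. Within cultures, 5 genes had a higher CPM with AGX51 in 4 of 4 cultures, against 20.6% of tested genes, and 2 had a lower CPM in 4 of 4, against 30.6%. The AGX51 library of culture 4 was the highest of its group for 7 of the 10 genes, against 22.3% of tested genes, and the vehicle library of culture 4 was the highest of its group for 5, against 22.1%. By letters in the promoter windows, called genes with an antioxidant core were *Gclm* and *Srxn1*, *Txnrd1* with a core and *Osgin1* with an AP-1 motif were not called, and *Ftl1* rose with neither. No link between motif and change was tested. Because the 10 genes were chosen with earlier results of these data known, the shares beside them are no test of the set.

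**Figure D1:**
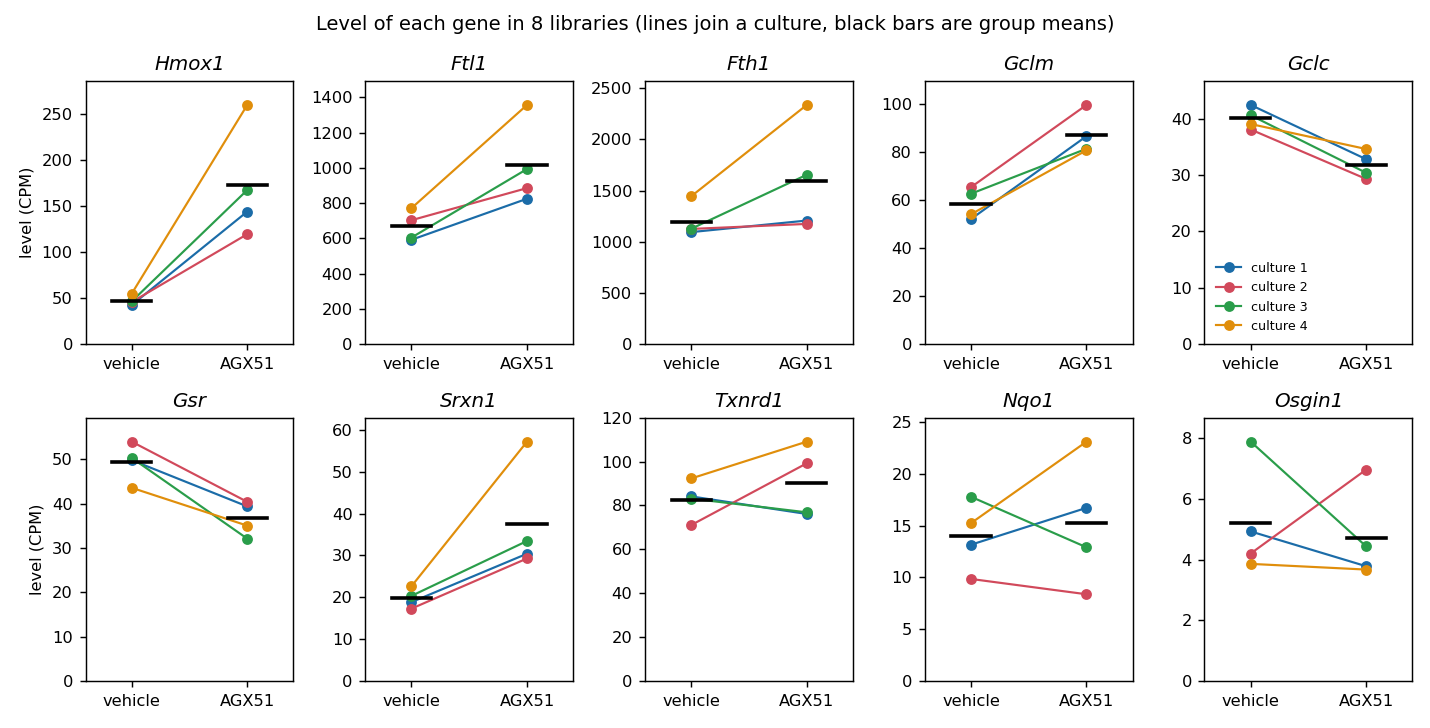
Level of each of the 10 genes in CPM (vertical axes, each from 0) in the vehicle and AGX51 libraries; each colored line joins the 2 libraries of a culture and black bars are group means (n = 4). The groups separate upward for Hmox1, Ftl1, Gclm and Srxn1, downward for Gclc and Gsr, and overlap for Fth1, Txnrd1, Nqo1 and Osgin1, and culture 4 stands highest with AGX51 for 7 genes.

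The largest rise among the 10 was that of *Hmox1* (ENSMUSG00000005413, chromosome 8 from 75093621 to 75100589, + strand), which encodes the inducible heme oxygenase that opens the heme ring and frees its iron. *Hmox1* was at 42.5, 45.7, 46.5 and 54.9 CPM in vehicle replicates 1 to 4 and at 144, 119, 167 and 259.6 CPM in AGX51 replicates 1 to 4. The lowest AGX51 library was well above the highest vehicle library, and culture 4 was the highest in both groups. The mean went from 47.4 ± 5.27 to 173 ± 61.2 CPM (SD, n = 4), 3.64-fold, with a log2 fold change of 1.96 ± 0.22 (SE) and an adjusted p of 6.16e-05 from edgeR. The log2 ratio within a culture ran from 1.38 to 2.24. *Hmox1* was called in every setting tried, with a log2 fold change of 1.48 beside the fibroblast covariate (adjusted p = 6.81e-06) and 1.67 to 2.14 with any 1 library left out. *Hmox2*, which encodes the constitutive heme oxygenase, was at 305, 279.9, 305 and 261 CPM with vehicle and 267, 239, 257 and 224 CPM with AGX51. Its groups overlapped and it was not called (log2 fold change -0.15, adjusted p = 0.294).

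*Ftl1* (ENSMUSG00000050708, chromosome 7 from 45457944 to 45459884, - strand) and *Fth1* (ENSMUSG00000024661, chromosome 19 from 9980598 to 9985098, + strand) encode the light and the heavy chain of ferritin, the shell in which cells store iron. The heavy chain oxidizes iron on entry and the light chain helps it form a mineral core. *Ftl1* was at 592, 703, 605 and 772 CPM in the vehicle libraries and at 825, 885, 994 and 1357 CPM in the AGX51 libraries. The groups did not overlap, and culture 4 was highest in both. *Ftl1* rose from 668 ± 85.1 to 1015 ± 238 CPM (SD, n = 4), with a log2 fold change of 0.69 ± 0.18 (SE) and an adjusted p of 0.0107 from edgeR. This call was lost beside the fibroblast covariate, where the log2 fold change was 0.32 (adjusted p = 0.0835), without AGX51 replicate 4 (0.49, adjusted p = 0.0197, under the fold threshold), without culture 3 (0.61, adjusted p = 0.0776) and without culture 4 (0.58, adjusted p = 0.0111, under the fold threshold). *Ftl1* has near-identical copies elsewhere in the genome, so reads may be split between them. The copy *Ftl1-ps1* was at 17.1, 5.64, 2.56 and 3.96 CPM with vehicle and at 91.2, 51.4, 4.17 and 6.28 CPM with AGX51, high in cultures 1 and 2 and low in cultures 3 and 4. With the counts of its copies added, *Ftl1* rose by 0.72 on the log2 scale (adjusted p = 0.00501).

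*Fth1* was at 1095, 1126, 1128 and 1445 CPM with vehicle and at 1208, 1175, 1655 and 2337 CPM with AGX51. It was higher with AGX51 in each culture, by a log2 ratio of 0.06 to 0.69, but the vehicle library of culture 4 lay above the AGX51 libraries of cultures 1 and 2. The means were 1198 ± 165 and 1594 ± 542 CPM (SD, n = 4), and *Fth1* was not called (log2 fold change 0.50 ± 0.22 SE, adjusted p = 0.104 from edgeR). It was called without AGX51 replicate 1 (0.65, adjusted p = 0.048) or without AGX51 replicate 2 (0.67, adjusted p = 0.0319), and its log2 fold change was 0.01 beside the fibroblast covariate (adjusted p = 0.964) and 0.23 without AGX51 replicate 4.

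*Gclm* and *Gclc* encode the modifier and the catalytic subunit of glutamate-cysteine ligase, which carries out the rate-limiting step of glutathione synthesis, and they moved apart. *Gclm* (ENSMUSG00000028124, chromosome 3 from 122245557 to 122270732, + strand) was at 52.2, 65.4, 62.7 and 54.1 CPM with vehicle and at 86.7, 99.7, 81.4 and 80.8 CPM with AGX51. The groups did not overlap, and here culture 2 rather than culture 4 was highest in both. *Gclm* rose from 58.6 ± 6.45 to 87.2 ± 8.77 CPM (SD, n = 4), with a log2 fold change of 0.64 ± 0.09 (SE) and an adjusted p of 0.000297 from edgeR. Beside the fibroblast covariate the value was 0.65 (adjusted p = 0.000326) and with any 1 library left out 0.60 to 0.72, while with library totals alone as the scale it was 0.57 (adjusted p = 0.00215), under the fold threshold. *Gclc* (ENSMUSG00000032350, chromosome 9 from 77754535 to 77794485, + strand) was at 42.4, 38.1, 40.6 and 39.0 CPM with vehicle and at 32.8, 29.3, 30.4 and 34.6 CPM with AGX51. In CPM, every AGX51 library was below every vehicle library, but this separation depends on the scale. The fold change uses TMM scaling, whose factors (0.929 for AGX51 replicate 4, 1.035 for vehicle replicate 2) bring the groups into overlap. *Gclc* was not called, with a log2 fold change of -0.25 ± 0.11 (SE) and an adjusted p of 0.113 from edgeR. Its means were 40.01 ± 1.90 and 31.8 ± 2.39 CPM (SD, n = 4).

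*Gsr* (ENSMUSG00000031584, chromosome 8 from 33652523 to 33698163, + strand) encodes glutathione reductase, which returns oxidized glutathione to its reduced form with NADPH. *Gsr* was at 49.9, 54.0, 50.3 and 43.6 CPM with vehicle and at 39.4, 40.4, 32.1 and 35.1 CPM with AGX51. The AGX51 libraries were all below the vehicle libraries, by a log2 ratio of -0.65 to -0.31 within cultures. Its log2 fold change of -0.36 ± 0.10 (SE) passed the p threshold (adjusted p = 0.0165 from edgeR) but not the fold threshold. Without a fold threshold *Gsr* was the 1 lower gene of the 10, and 15.3% of tested genes were lower at that rule. *Gsr* no longer passed the p threshold beside the fibroblast covariate (-0.30, adjusted p = 0.0571), without vehicle replicate 2 (adjusted p = 0.0595) or AGX51 replicate 3 (adjusted p = 0.0531), or without culture 1, 2 or 3 (adjusted p = 0.0784, 0.0729 and 0.102).

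*Srxn1* (ENSMUSG00000032802, chromosome 2 from 152105516 to 152111376, + strand) encodes sulfiredoxin, which repairs overoxidized peroxiredoxins. *Srxn1* was at 18.8, 17.3, 20.3 and 22.6 CPM with vehicle and at 30.4, 29.3, 33.5 and 57.2 CPM with AGX51. The groups did not overlap, and the AGX51 library of culture 4 stood well above the other AGX51 libraries. *Srxn1* rose from 19.8 ± 2.28 to 37.6 ± 13.2 CPM (SD, n = 4), with a log2 fold change of 1.02 ± 0.22 (SE) and an adjusted p of 0.00361 from edgeR. It remained called without AGX51 replicate 4, at 0.71, and lost its call beside the fibroblast covariate, where 0.55 was under the fold threshold (adjusted p = 0.018).

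*Txnrd1* (ENSMUSG00000020250, chromosome 10 from 82833951 to 82897712, + strand) encodes cytosolic thioredoxin reductase, which keeps thioredoxin reduced. *Txnrd1* was at 84.1, 71.1, 83.1 and 92.3 CPM with vehicle and at 76.1, 99.2, 76.9 and 109 CPM with AGX51. The groups overlapped, with AGX51 higher in cultures 2 and 4 and lower in cultures 1 and 3. It was not called (log2 fold change 0.20 ± 0.14 SE, adjusted p = 0.279 from edgeR).

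*Nqo1* (ENSMUSG00000003849, chromosome 8 from 107388225 to 107403206, - strand), the quinone reductase often read as a marker of NRF2 activity, was at 13.1, 9.84, 17.8 and 15.2 CPM with vehicle and at 16.7, 8.37, 12.9 and 23.1 CPM with AGX51. Its groups overlapped, with AGX51 higher in cultures 1 and 4 and lower in cultures 2 and 3. *Nqo1* was not called (log2 fold change 0.24 ± 0.27 SE, adjusted p = 0.532 from edgeR), and the sign turned without AGX51 replicate 4, to -0.06, and beside the fibroblast covariate, to -0.12. *Osgin1* (ENSMUSG00000074063, chromosome 8 from 119434124 to 119446256, + strand), which encodes an oxidative stress-induced growth inhibitor, was at 4.93, 4.20, 7.89 and 3.86 CPM with vehicle and at 3.78, 6.97, 4.43 and 3.67 CPM with AGX51. Its groups overlapped and AGX51 was higher in culture 2 alone. *Osgin1* was the shallowest of the 10 genes, at 24 to 71 counts per library, and was not called (log2 fold change -0.11 ± 0.27 SE, adjusted p = 0.796 from edgeR).

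**Figure D2:**
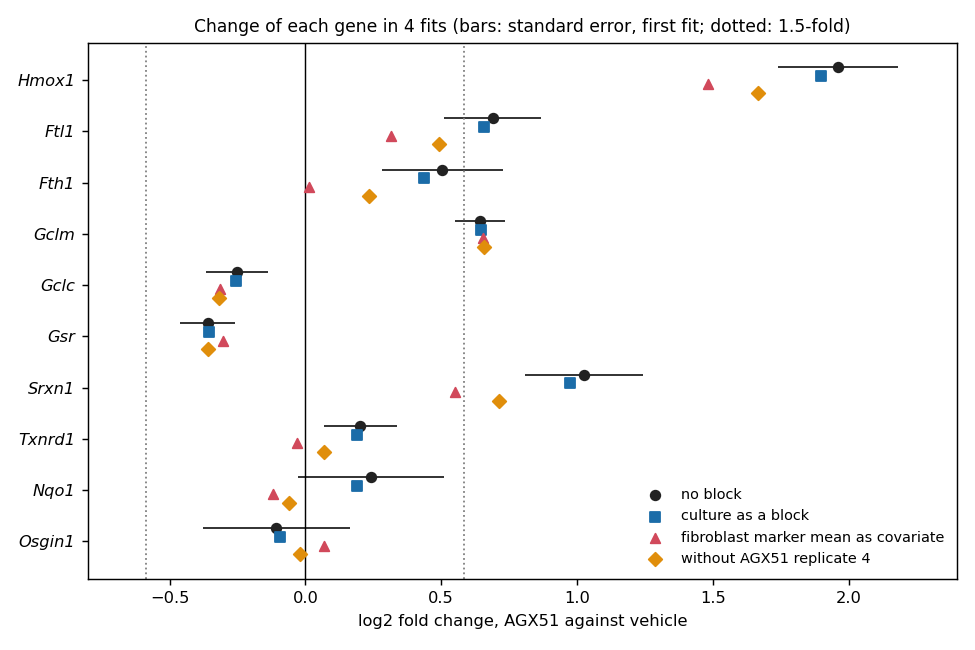
Log2 fold change of AGX51 against vehicle (horizontal axis) for each of the 10 genes in 4 fits; bars are standard errors of the fit with no block, and dotted lines mark 1.5-fold. Hmox1 stays past the line in all 4 fits and Gclm in all 4, while Ftl1 and Srxn1 fall below it beside the fibroblast covariate, at 0.32 and 0.55, and Ftl1 also without AGX51 replicate 4, at 0.49.

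Ratios of partner genes within a library do not depend on the scaling between libraries, and 5 were compared by a two-sided exact permutation test with Benjamini-Hochberg adjustment over the 5. The log2 ratio of *Gclm* to *Gclc* was 0.30, 0.78, 0.63 and 0.47 in vehicle replicates 1 to 4 and 1.403, 1.77, 1.42 and 1.22 in AGX51 replicates 1 to 4. The groups did not overlap. The difference was 0.91, a 1.88-fold higher proportion of modifier to catalytic transcript, and it was positive in 4 of 4 cultures (exact permutation p = 0.0286, adjusted p = 0.0477). The ratio of *Hmox1* to *Hmox2* was 4.09-fold higher with AGX51, in 4 of 4 cultures (log2 difference 2.03, exact permutation p = 0.0286, adjusted p = 0.0477). *Gss* encodes glutathione synthetase, the enzyme of the second step of glutathione synthesis. The ratio of *Gsr* to *Gss*, which encode separate enzymes, was 0.487 times that in vehicle, lower in 4 of 4 cultures (log2 difference -1.04, exact permutation p = 0.0286, adjusted p = 0.0477). For *Gclm* to *Gclc* and *Gsr* to *Gss*, the single genes already separated in opposite directions. For *Hmox1* to *Hmox2*, *Hmox1* alone separated, from at most 54.9 CPM with vehicle to at least 119 CPM with AGX51. As a fold, this gap was wider than the whole range of *Hmox2*, 224 to 305 CPM. The p-values of all of these ratios were thereby fixed at the lowest possible and add no separate evidence. Light to heavy ferritin chain differed by 0.22 on the log2 scale, higher in 4 of 4 cultures, and did not pass the test (exact permutation p = 0.0857, adjusted p = 0.107). *Txnrd1* to its mitochondrial counterpart *Txnrd2* differed by -0.10, higher in 1 of 4 cultures (exact permutation p = 0.743, adjusted p = 0.743). Paired by culture, a sign-flip test cannot give a p below 0.125, the value for each of the first 4 ratios.

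**Figure D3:**
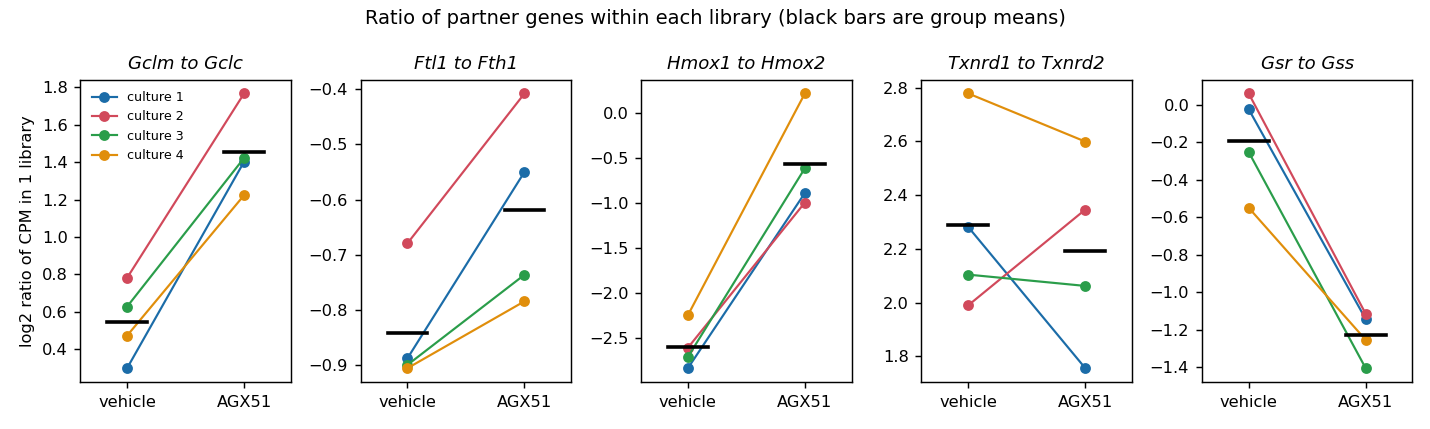
Log2 ratio of the CPM of 2 partner genes within each library (vertical axes, each with its own range) in vehicle and AGX51 libraries; colored lines join a culture and black bars are group means (n = 4). Gclm to Gclc and Hmox1 to Hmox2 lie higher in every AGX51 library than in any vehicle library, Gsr to Gss lies lower, and the other 2 ratios overlap between groups.

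The regulators of the pathway were described from a list of 15 genes, of which 14 were tested. Beside the counts of this and the following lists, 8.57% of all tested genes were called higher and 9.93% lower. No list was tested as a set. *Nfe2l2* was at 86.7, 73.5, 99.6 and 103.8 CPM with vehicle and at 85.7, 95.5, 73.5 and 114 CPM with AGX51, with overlapping groups and no call (log2 fold change 0.10, adjusted p = 0.647 from edgeR). Its sign turned without AGX51 replicate 4, at -0.05. *Keap1* (-0.18, adjusted p = 0.364) and the repressor *Bach1* (-0.24, adjusted p = 0.183) were not called either. RNA levels do not measure the amount or the location of the NRF2, KEAP1 or BACH1 protein. On this list 3 genes rose, none was called lower by edgeR, limma-voom or DESeq2, and the median was 0.20. The 1 gene lower at an unadjusted p under 0.05 was *Mafk*, a small MAF gene. It also passed the adjusted p threshold (adjusted p = 0.0222 from edgeR) but not the fold threshold, with a log2 fold change of -0.40. *Sqstm1*, whose product p62 binds KEAP1 and is itself an NRF2 target, was at 95.7, 99.6, 111 and 119.8 CPM with vehicle and at 269, 271, 277 and 409.5 CPM with AGX51. All 4 AGX51 libraries were above all vehicle libraries (log2 fold change 1.61 ± 0.16 SE, adjusted p = 2.87e-05). *Maff*, a small MAF partner of NRF2, rose by 1.32 on the log2 scale (SE 0.20, adjusted p = 0.000464). *Btrc*, which encodes an adaptor of a second ubiquitin ligase for NRF2, had 0.61 (adjusted p = 0.00559), close to the fold threshold. It was under that threshold with library totals alone or upper quartile scaling (0.53 and 0.55) and without vehicle replicate 1 or 4 (0.53 and 0.55) or either of those cultures.

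Among 23 other tested NRF2 targets, 5 rose and 2 fell, with a median of 0.28. *Slc7a11*, the light chain of the cystine transporter that supplies cysteine for glutathione, was at 0.767, 0.480, 1.22 and 1.15 CPM with vehicle and at 7.09, 9.99, 8.47 and 11.2 CPM with AGX51. Its groups were far apart (log2 fold change 3.39 ± 0.29 SE, adjusted p = 9.99e-06 from edgeR). The vehicle libraries held only 7, 4, 11 and 11 counts of *Slc7a11*, so the size of its fold change is uncertain. *Slc6a9*, a glycine transporter, rose by 0.97 (adjusted p = 0.000403), *Ugdh*, which makes UDP-glucuronate, by 1.16 (adjusted p = 0.000771), and *Blvrb* and *Mgst1* were also called higher. *Abcc4*, an efflux pump, fell, with a log2 fold change of -1.102 (adjusted p = 0.000179), as did *Gsta4*, a glutathione transferase. The groups of *Mgst1* and of *Gsta4* overlapped in CPM.

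The 21 other tested glutathione enzymes had 4 genes called higher, 2 called lower and a median of -0.02. *Chac1*, which cleaves glutathione, was at 4.05, 5.28, 4.22 and 4.38 CPM with vehicle and at 45.7, 56.5, 35.6 and 81.6 CPM with AGX51. This was the largest change on these lists (log2 fold change 3.69 ± 0.25 SE, adjusted p = 1.57e-06 from edgeR). *Gss* was at 50.7, 51.9, 60.0 and 63.8 CPM with vehicle and at 87.0, 87.6, 85.1 and 83.6 CPM with AGX51, with no overlap (0.68, adjusted p = 0.000334). So *Gss*, *Gclm* and *Slc7a11* rose. *Gclc* and *Gsr*, neither of them called, had a lower CPM in every AGX51 library than in any vehicle library. *Slc25a40*, a mitochondrial glutathione carrier, rose by 0.94 (adjusted p = 0.00821; 0.65 and no call beside the fibroblast covariate), and *Oplah* was also called higher. *Gpx8*, a glutathione peroxidase of the endoplasmic reticulum, fell, with a log2 fold change of -0.69 (adjusted p = 0.0197). The call of *Gpx8* was lost without vehicle replicate 4 (-0.47), without AGX51 replicate 1, 2 or 3, and without culture 2 or 3. *Glrx*, a glutaredoxin, was also called lower, and *Gpx4*, the peroxidase that removes lipid hydroperoxides, was not called (0.01, adjusted p = 0.982).

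Of 12 other tested thioredoxin and superoxide genes, 2 rose, none was called lower by edgeR, limma-voom or DESeq2, and the median was 0.09. The 1 gene lower at an unadjusted p under 0.05 was *Prdx4*. It also passed the adjusted p threshold (adjusted p = 0.00365 from edgeR) but not the fold threshold, with a log2 fold change of -0.475. *Txnip*, which binds and inhibits thioredoxin, was at 30.9, 31.8, 37.6 and 30.8 CPM with vehicle and at 61.0, 62.7, 59.4 and 52.7 CPM with AGX51. Its groups did not overlap (log2 fold change 0.92, adjusted p = 4.09e-05 from edgeR). *Prdx6*, a peroxiredoxin, had 0.60 (adjusted p = 0.0054), near the fold threshold, and was under it without AGX51 replicate 4 (0.46), vehicle replicate 1 or 3 (0.54 and 0.58) or culture 4 (0.54), with upper quartile scaling (0.55), library totals alone (0.53) or equal depth (0.58), and beside the fibroblast covariate (0.34). *Txnrd2* was not called (0.28, adjusted p = 0.142).

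**Figure D4:**
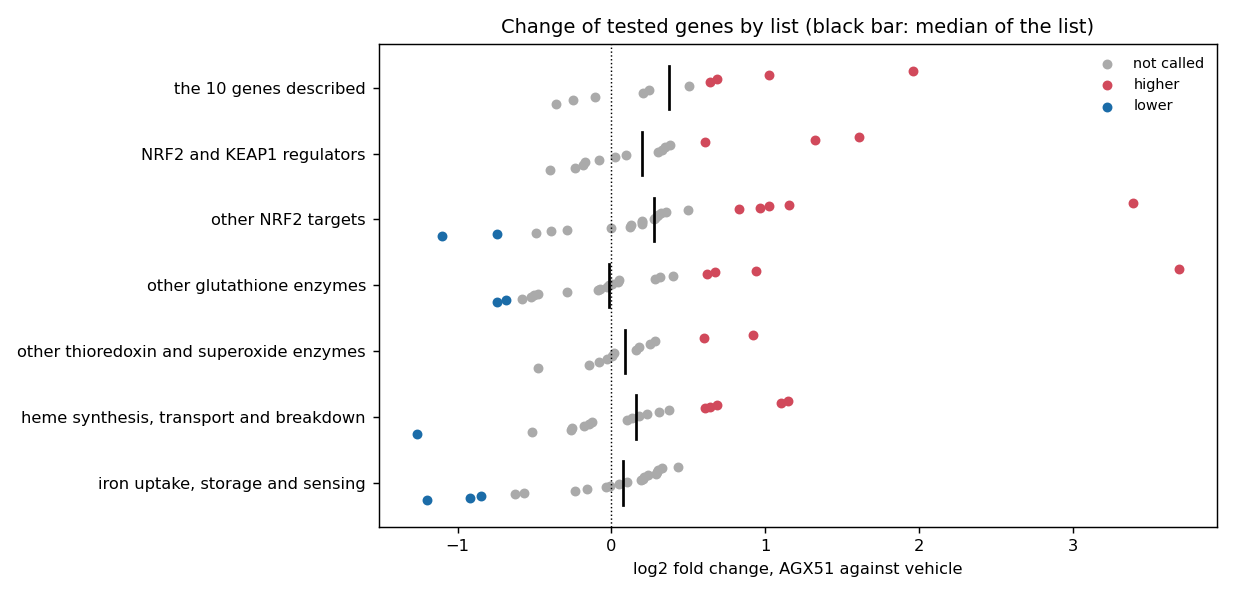
Log2 fold change of AGX51 against vehicle (horizontal axis) of each tested gene, by list (vertical axis), with genes called higher in red, called lower in blue and not called in gray; black bars are list medians. The medians lie between -0.02 and 0.37, the 3 called genes of the 20 on the iron list are lower, and Slc7a11 and Chac1 stand apart at 3.39 and 3.69. Over all tested genes 8.57% were called higher and 9.93% lower.

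Genes of heme synthesis, transport and breakdown other than *Hmox1* had 5 called higher and 1 called lower of 18 tested, with a median of 0.16. *Cpox*, an enzyme of late heme synthesis, was at 5.15, 7.32, 7.56 and 7.09 CPM with vehicle and at 12.1, 14.4, 11.02 and 19.1 CPM with AGX51. *Slc25a37*, which imports iron into mitochondria, was at 7.67, 7.08, 8.23 and 6.36 CPM with vehicle and at 11.5, 13.5, 15.6 and 18.4 CPM with AGX51. Neither overlapped between groups, and both rose (*Cpox* by 1.15, adjusted p = 0.00135, *Slc25a37* by 1.103, adjusted p = 0.00108 from edgeR). *Slc48a1*, a heme transporter, rose by 0.69 (adjusted p = 0.0132) and lost its call beside the fibroblast covariate (0.27), without AGX51 replicate 4 (0.44) and without culture 2 or 4, and *Pgrmc1* and *Slc25a38* were also called higher. The groups of *Slc48a1*, *Pgrmc1* and *Slc25a38* overlapped in CPM. *Hebp1*, a heme-binding protein, was at 89.1, 62.2, 79.0 and 75.0 CPM with vehicle and at 31.8, 22.3, 29.8 and 34.8 CPM with AGX51. It fell, with a log2 fold change of -1.27 (adjusted p = 0.000123).

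Of 20 other tested genes of iron uptake, storage and sensing, 3 were called lower, and the median was 0.07. None was called higher by edgeR, limma-voom or DESeq2. Over all tested genes 8.57% were called higher and 9.93% lower. At an unadjusted p under 0.05, 5 genes of the list were higher. Of these, *Pcbp2* also passed the adjusted p threshold (0.30, adjusted p = 0.0406 from edgeR) but not the fold threshold. *Fbxl5*, which marks the iron regulatory protein IRP2 for degradation when iron is plentiful, was at 216, 186, 186 and 172 CPM with vehicle and at 102, 100.4, 86.3 and 93.3 CPM with AGX51. *Trf*, which encodes the iron carrier transferrin, was at 116, 94.4, 93.2 and 75.9 CPM with vehicle and at 44.1, 44.9, 37.4 and 32.2 CPM with AGX51. Both fell in every culture (*Fbxl5* at -0.92, adjusted p = 4.33e-05, *Trf* at -1.20, adjusted p = 5.33e-05 from edgeR). *Cisd2*, an iron-sulfur protein of the endoplasmic reticulum, also fell (-0.85, adjusted p = 0.000103). *Slc40a1*, the iron exporter ferroportin and an NRF2 target, was at 40.1, 35.6, 40.8 and 33.6 CPM with vehicle and at 35.9, 19.7, 20.6 and 19.9 CPM with AGX51. The AGX51 library of culture 1 alone overlapped the vehicle range. *Slc40a1* passed the p threshold but not the fold threshold (-0.57, adjusted p = 0.025), and was called lower without AGX51 replicate 1 (-0.78, adjusted p = 0.00124), vehicle replicate 4 (-0.61) or culture 1 (-0.75), with upper quartile scaling (-0.63) or library totals alone (-0.64), with culture as a block (-0.60, adjusted p = 0.000327) and with limma-voom (-0.60, adjusted p = 0.0146). It did not pass the p threshold beside the fibroblast covariate (-0.36, adjusted p = 0.128), without vehicle replicate 1 or 3 (adjusted p = 0.0687 and 0.0698), without AGX51 replicate 2, 3 or 4 (adjusted p = 0.072, 0.0722 and 0.052), or without culture 2 or 3 (adjusted p = 0.101 and 0.143). The iron-regulated transferrin receptor *Tfrc* (0.21, adjusted p = 0.341) and the genes of the iron regulatory proteins, *Aco1* (-0.16, adjusted p = 0.396) and *Ireb2* (0.05, adjusted p = 0.789), were not called.

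Likeness to *Hmox1* and *Nqo1* was measured as the root mean square distance of log2 CPM, centred on the mean of the 8 libraries. Nearest to *Hmox1* were *Nupr1*, a stress-induced nuclear protein gene (distance 0.19), *Sqstm1* (0.21) and *Pck2*, the mitochondrial phosphoenolpyruvate carboxykinase (0.25). Their log2 fold changes were 1.58, 1.61 and 1.64. Nearest to *Nqo1* were *Guca1a* (0.18), *Ctbs* (0.18) and *Ptges* (0.19), with log2 fold changes of 0.13, 0.17 and 0.29, none called. The distance reads the change with AGX51 and the spread between cultures together.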

How the data were processed

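Poly(A)-primed RNA-seq of 8 libraries (4 vehicle, 4 AGX51) was used. The deposited count per gene and library came from the authors' RNAsik pipeline. The authors scaled these counts by each library's total to give the CPM columns. The genome build is GRCm38, and the submitters' processing notes list edgeR, limma, featureCounts, Salmon and STAR, with no versions. Whether strand was used in counting, and how the 17167 listed genes were chosen, are not given in the sources used here. The table also holds the authors' own comparison from Degust with limma-voom (log2 fold change, average expression, FDR and p-value), which was not used. All columns with values per library were matched to a sample by name.

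From the counts, edgeR 4.0.16 in R 4.3.3 was run on genes kept by filterByExpr (at least 10 counts, total at least 15), scaled by TMM, with the quasi-likelihood test and Benjamini-Hochberg adjustment over 14428 genes. Another 2739 genes were not tested. Standard errors are the log2 fold change divided by the root of F. The study's test, limma-voom (limma 3.58.1), was an alternative, beside DESeq2 1.42.0, other scalings, filters and fold thresholds, equal depth, culture as a block, the fibroblast marker mean as a covariate, ferritin copies summed, no mitochondrial genes, and each library and each culture left out. The script was tested on simulated data. Single values were compared by exact permutation tests in Python 3.11.15.

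The labels give same-number libraries the same culture letter, which pairs them by culture. After group means were removed, such pairs correlated at 0.109 to 0.427 and other pairs at -0.273 to 0.086. No libraries were identical, and the chi-square between replicates was 6.25 to 19.9 times its degrees of freedom, above counting noise. Depth was 4303318 to 9586105 counts per library.

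The 10 genes and the lists were chosen with earlier results of these data known. Named genes are the 10, a fixed set of partners and regulators, up to 4 called genes per list with the smallest adjusted p, the 3 genes most like *Hmox1* and *Nqo1*, and up to 3 abundant markers per cell type. Other called members of a list, and *Uchl1*, *Mafk*, *Prdx4* and *Pcbp2*, were named after their values were seen. For *Blvrb*, *Mgst1*, *Gsta4*, *Oplah*, *Glrx*, *Pgrmc1* and *Slc25a38*, no values with a library left out or beside the fibroblast covariate are given. Gene IDs matched GENCODE M21 on GRCm38 for 17151 genes. Of 208 list genes asked, 177 had a row, and the others (among them *Dpp3*, *Aldh3a1*, *Alas2*, *Flvcr1*, *Abcb6*, *Ftmt* and *Hamp*) were not analysed here.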

Additional observations from a re-analysis of the deposited data

Results flagged for a closer look

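In 10 of 90 groups of 4 values, 1 library stood far from the other 3 by Dixon's test, which chance does in about 1 group in 20. Among the 10 genes, *Srxn1* was at 57.2 CPM in AGX51 replicate 4 against 29.3 to 33.5 in the other AGX51 libraries, and *Fth1* was at 1445 CPM in vehicle replicate 4 against 1095 to 1128. The log2 ratio of *Ftl1* to *Fth1* was -0.68 in vehicle replicate 2 against -0.91 to -0.89.

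Among the pathway genes, AGX51 replicate 4 also stood high for *Sqstm1* (409.5 CPM against 269 to 277), *Ugdh* (158.9 against 96.2 to 100.7) and *Gpx8* (91.6 against 56.7 to 61.5). *Slc40a1* was at 35.9 CPM in AGX51 replicate 1 against 19.7 to 20.6, and *Btrc* at 36.9 CPM in AGX51 replicate 2 against 30.9 to 31.4. *Aco1* was at 45.3 CPM in vehicle replicate 2 against 33.2 to 35.2, and *Txnip* at 37.6 CPM in vehicle replicate 3 against 30.8 to 31.8.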

How the results depend on the processing

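Of the 10 genes, 4 were called higher, and 3 to 5 when 1 library was left out. The count was 2 beside the fibroblast covariate (*Hmox1* and *Gclm*) and 2 at a fold above 2 (*Hmox1* and *Srxn1*). None was called lower, and 1 (*Gsr*) was with no fold threshold. Over all genes, 1236 were higher and 1432 lower, 2190 and 2211 with no fold threshold, 486 and 626 at a fold above 2, 952 and 1752 with library totals alone, and 1054 to 1294 and 1172 to 1396 with 1 library left out.

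The paired fit, with culture as a replicate block, changed no call of the 10 genes: *Hmox1* was at 1.90, *Srxn1* at 0.97, *Ftl1* at 0.66, *Gclm* at 0.65 and *Fth1* at 0.44 (adjusted p = 0.0181, under the fold threshold). Under the block the adjusted p of *Gclc* was 0.038, with a log2 fold change of -0.26. The exact sign-flip permutation test over culture pairs gave p = 0.125, its smallest value, for the ratios of *Gclm* to *Gclc* (0.909), *Hmox1* to *Hmox2* (2.03) and *Gsr* to *Gss* (-1.04), and for spermatogonia markers (-0.492).

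Directions turned only in genes and ratios that were not called. Beside the fibroblast covariate *Nqo1* was at -0.118, *Osgin1* at 0.069, *Txnrd1* at -0.03, *Nfe2l2* at -0.147 and *Gpx4* at -0.302. *Gpx4* was also at -0.045 under upper quartile scaling, -0.075 with library totals alone and -0.002 with the replicate block, and *Ireb2* at -0.003 and -0.029 under those scalings. With 1 library left out, the ranges were -0.06 to 0.457 for *Nqo1*, -0.261 to 0.158 for *Osgin1*, -0.054 to 0.179 for *Nfe2l2*, -0.15 to 0.142 for *Gpx4*, -0.055 to 0.135 for *Ireb2*, and -0.234 to 0.066 for *Txnrd1* to *Txnrd2*. The log2 CPM difference of the Leydig marker *Star*, called higher by edgeR, did not turn, at 0.535 to 0.863. By the exact permutation test *Star* passed only without AGX51 replicate 2 (p = 0.0286). Without culture 4 *Nqo1* was at -0.007 and *Gpx4* at -0.018, and without culture 3 *Osgin1* was at 0.128, *Gpx4* at -0.073 and *Ireb2* at -0.05. The causes were not tested.

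The AGX51 libraries were shallower, and *Osgin1*, *Nqo1* and, with vehicle, *Slc7a11* had few counts. The fibroblast marker mean was higher with AGX51 in 4 of 4 cultures, so the covariate and the treatment overlap. Reads of genes with copies (*Ftl1*) or overlapping exons cannot be split: *Gclm* overlaps *Gm17494* and *Gm6061*, *Ftl1* overlaps *Gm10252* and *Gm22133*, and *Gss*, *Hmox2*, *Txnrd2*, *Keap1*, *Sqstm1*, *Fbxl5*, *Hebp1*, *Txnip* and *Trf* overlap other genes. The same holds for *Cpox*, *Slc48a1*, *Slc25a37*, *Slc6a9*, *Ugdh*, *Btrc*, *Oplah*, *Mafk*, *Pcbp2*, *Uchl1*, *Gfra1* and *S100a4*. The strand used in counting is not stated.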
